A study of Mus musculus with 12 samples.

Results

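*Jarid2*, *Myef2*, *Trim33*, *Mybl2*, *Pcgf6* and *Klf8* encode regulators of transcription that entered the comparisons of glucose concentrations through 1 isoform each. They were chosen from measured differences per transcript: *Jarid2*, *Pcgf6* and *Klf8* from 0X against 1X glucose, and *Myef2*, *Trim33* and *Mybl2* from 3X against 1X glucose. Every transcript that the count files list for them was taken, which gave 56 of 120312 RefSeq transcripts, belonging to 6 of 38911 genes. *Jarid2* has 7 of them, *Myef2* 15, *Trim33* 4, *Mybl2* 5, *Pcgf6* 12 and *Klf8* 13. A count was present in at least 1 library for 53 of the 56 transcripts, and in all 12 libraries for 13. The contrasts of 0X and 3X glucose with 1X glucose chose these genes, so their values are given as a description and carry no test.

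The libraries were made from polyA RNA of day 4 gastruloids, aggregates of mouse embryonic stem (ES) cells that elongate in culture and pattern a body axis. The cells were E14TG2a, 1 ES cell line kept in 2iLIF medium and seeded at 200 cells per gastruloid. Treatment ran from day 3 to day 4 with 0X glucose (0 mM), 1X glucose (21.25 mM), 3X glucose (63.75 mM) or 2-DG, which is 2-deoxy-D-glucose, a glucose analog that inhibits hexokinase, at 5 mM in 1X glucose. Each group held 3 libraries, from ES cell passages 13, 15 and 16. Each library pooled the gastruloids that 1 treatment had in 1 plate. The p-values of fits without the passage therefore measure the spread between passages of 1 line. Those of fits with the passage measure the spread that remains after treatment and passage. The total per library was 31902471 to 45956080 estimated counts, with the highest median in 1X glucose. The 6 posterior gastruloid markers fixed for this check (*T*, *Tbx6*, *Cdx2*, *Sox2*, *Nkx1-2* and *Wnt3a*) summed to 447 to 1342 CPM (counts scaled to a common library total) over the 12 libraries. They summed to 447 to 570 CPM in 2-DG and to 676 to 1304 CPM in 1X glucose. The 4 feeder fibroblast markers that passed the filter, of 6, summed to 8.39 to 13.2 CPM.

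Most mammalian genes give rise to several transcripts that share exons and differ in where they start, which internal exons they keep and where they end. A short read that falls in a shared exon does not say which transcript it came from, so a program such as StringTie divides the reads of a gene among the annotated models. A gene total, the sum over its listed transcripts, does not depend on how its reads are divided among those transcripts. Whether reads went to models that are not listed was not checked. Accessions starting with NM or NR are curated mRNAs and non-coding RNAs, and those starting with XM or XR are predicted ones.

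The 6 genes act at different steps. Jarid2 is an accessory subunit of Polycomb repressive complex 2, which methylates histone H3 at lysine 27 and silences developmental genes in ES cells. Pcgf6 defines the variant Polycomb repressive complex PRC1.6, which represses germline genes. Trim33, a chromatin-binding ubiquitin ligase, acts with Smad proteins in Nodal and TGF-beta signaling. Mybl2 (B-Myb) works with the MuvB complex and activates genes of late cell cycle phases. Klf8 is a zinc finger factor that represses with CtBP proteins, and Myef2 is an RNA- and DNA-binding protein named for its repression of the myelin basic protein gene.

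Exon structures were available for 11 of the 56 transcripts, matched by accession and version to the GENCODE annotation of the mouse genome build GRCm38. *Jarid2* lies on chromosome 13, from 44730774 to 44921643. Its transcripts NM_001205043.1, NM_001205044.1 and NM_021878.3 hold the same coding length of 3702 bases between the same ends, and 16 of the 18 exons of NM_001205043.1 are identical in another of the 3. They differ at the 5′ end and in the last exon, and their spliced lengths are 5997, 4135 and 5019 bases. *Mybl2* (chromosome 2, 163054327 to 163084688) has 1 matched transcript, NM_008652.2, with 14 exons and a coding length of 2112 bases. *Klf8* (chromosome X, 153225339 to 153398925) has no transcript matched by version.

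In 3 of the genes the matched transcripts differ by a whole coding exon, and these exons are shown because reads across their junctions can tell the transcripts apart. Capitals mark the exon, and the 15 bases in lower case on each side are the neighboring coding exons. The *Trim33* exon lies at chr3:103353567-103353617 on the plus strand, is present in NM_053170.3 and is absent from NM_001079830.2. The *Myef2* exons lie on the minus strand, at chr2:125097563-125097634 (absent from NM_001162418.1) and at chr2:125098797-125098847 (present in NM_001162417.1 alone among the 3 matched). The *Pcgf6* exon lies at chr19:47045810-47045918 on the minus strand, is present in NM_027654.3 and is absent from NR_133574.1.
Trim33 exon of 51 bases: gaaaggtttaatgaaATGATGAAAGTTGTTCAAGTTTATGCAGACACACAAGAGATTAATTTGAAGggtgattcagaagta
Trim33 without it: gaaaggtttaatgaaggtgattcagaagta
Myef2 exon of 72 bases: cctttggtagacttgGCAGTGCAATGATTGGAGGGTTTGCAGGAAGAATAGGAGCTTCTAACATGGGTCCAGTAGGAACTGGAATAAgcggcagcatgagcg
Myef2 without it: cctttggtagacttggcggcagcatgagcg
Myef2 exon of 51 bases: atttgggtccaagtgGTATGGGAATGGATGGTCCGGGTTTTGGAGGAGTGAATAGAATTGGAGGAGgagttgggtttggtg
Pcgf6 exon of 109 bases: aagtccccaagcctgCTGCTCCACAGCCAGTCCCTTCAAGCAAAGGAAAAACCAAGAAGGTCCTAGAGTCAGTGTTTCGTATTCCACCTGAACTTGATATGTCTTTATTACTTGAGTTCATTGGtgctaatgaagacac
Pcgf6 without it: aagtccccaagcctgtgctaatgaagacac
The exons of 51 and 72 bases keep the reading frame, since their lengths are multiples of 3. The *Pcgf6* exon of 109 bases does not, and GENCODE lists the transcript without it as a target of nonsense-mediated decay.

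**Figure D1:**
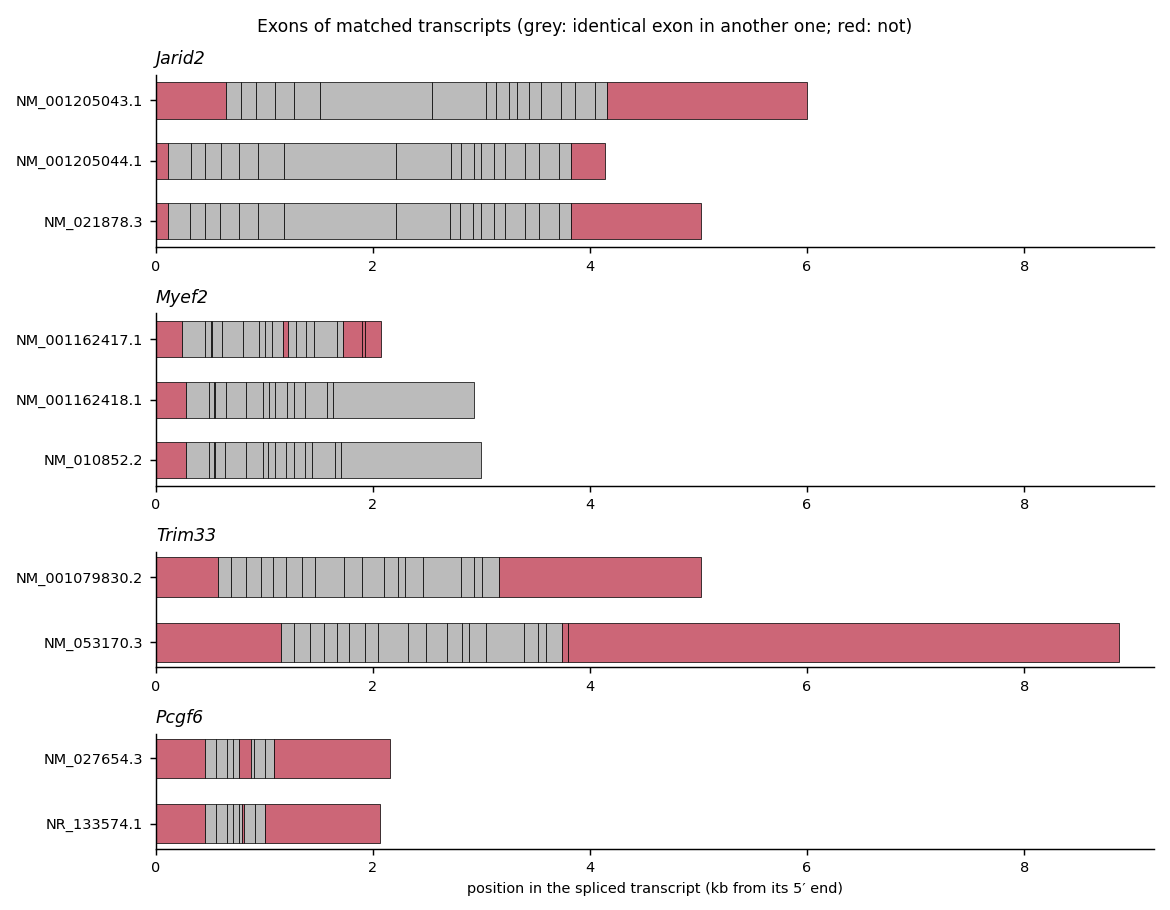
Exons of the matched transcripts of Jarid2, Myef2, Trim33 and Pcgf6, drawn to scale along the spliced RNA in kb from its 5′ end. Grey exons are identical in another matched transcript and red ones are not. In Jarid2, 16 of the 18 exons of NM_001205043.1 are grey, and the red ones lie at the ends.

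The first question was whether the genes themselves differed between treatments. Gene totals are given in CPM with edgeR's TMM normalization, as the mean ± SD of 3 libraries. *Pcgf6* was at 80.9 ± 1.4 CPM in 0X, 81.7 ± 1.2 in 1X, 81.2 ± 1.1 in 3X glucose and 82.3 ± 3.2 in 2-DG. Over the 12 libraries it ran from 78.6 to 84.3 CPM, a coefficient of variation (CV) of 2.13%. *Mybl2* was at 66.9 ± 1.5, 67.0 ± 1.9, 64.1 ± 1.9 and 62.9 ± 0.91 CPM in the same order (CV 3.54%). *Trim33* was at 168 ± 6.7, 166 ± 9.0, 164 ± 5.5 and 159 ± 3.3 CPM (CV 4.01%). The libraries of the groups overlapped in each of these genes, with these exceptions. All 3 libraries of *Mybl2* in 2-DG (62.1 to 63.9 CPM) lay below those in 0X (65.3 to 68.2 CPM) and 1X glucose (65.0 to 68.9 CPM). All 3 libraries of *Trim33* in 2-DG (155.1 to 160.951 CPM) lay below those in 0X glucose (160.962 to 174.1 CPM). That margin is within rounding. The share of all genes separated in this way was not computed, so nothing is read from these gaps.

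*Jarid2*, *Myef2* and *Klf8* varied more, and mostly by passage. *Jarid2* was at 86.9 ± 8.6 CPM in 0X, 85.0 ± 5.6 in 1X, 86.0 ± 8.9 in 3X glucose and 90.6 ± 9.0 in 2-DG (CV 8.35%). *Myef2* was at 339 ± 33.7, 334 ± 30.3, 327 ± 31.6 and 302 ± 15.1 CPM (CV 8.80%). *Klf8*, the gene with the fewest counts (136 to 343 per library), was at 5.48 ± 1.36, 6.31 ± 1.55, 5.98 ± 1.85 and 7.49 ± 1.69 CPM (CV 25.1%). Of the 8833 genes with more than 1 transcript, a mean of at least 100 counts and a count in every library, the median CV of the total was 9.63%. *Pcgf6* had a lower CV than all but 0.0679% of them, *Mybl2* than all but 2.89% and *Trim33* than all but 4.94%.

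As a description of the contrasts that chose the genes, the fitted log2 fold changes of the totals were small. In 0X against 1X glucose, they were 0.03 (SE 0.10) for *Jarid2*, -0.01 (SE 0.04) for *Pcgf6* and -0.20 (SE 0.28) for *Klf8*. In 3X against 1X glucose, they were -0.03 (SE 0.09) for *Myef2*, -0.02 (SE 0.05) for *Trim33* and -0.06 (SE 0.04) for *Mybl2*. The SEs are those of the fit without the passage, and no test is drawn from them.

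**Figure D2:**
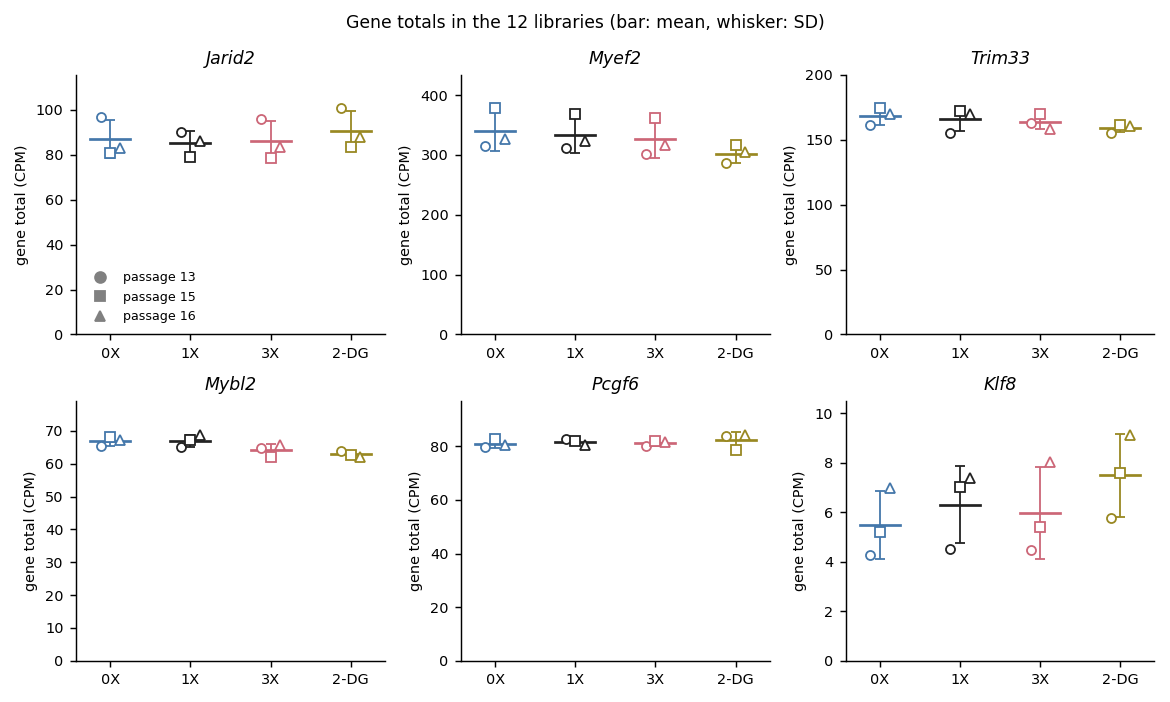
Gene totals (CPM, vertical axis from 0) of the 6 genes by treatment, with 1 symbol per library shaped by ES cell passage, the mean as a bar and the SD as a whisker (n = 3). Pcgf6 spans 78.6 to 84.3 CPM, while Klf8 spans 4.29 to 9.14 CPM and is lowest at passage 13 in each group.

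The transcripts of the same genes behaved differently from the totals. For *Jarid2*, NM_001205044.1, the transcript with the shortest 3′ end of the matched 3, had 0 estimated counts in all 3 libraries of 0X glucose. It had 481, 1469 and 754 counts in 1X glucose (passages 13, 15 and 16 here and in all lists of 3 counts), 518, 0 and 688 in 3X glucose and 220, 300 and 271 in 2-DG. The libraries of 0X and 1X glucose did not overlap, but 1 library of 3X glucose also held none. With 3 counts per library as the floor, the estimated level in 1X glucose was 237-fold the floor in 0X glucose. A 0 here depends on how the program divided shared reads, so such a ratio is not a lower bound on a change in RNA.

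Most of the remaining counts of *Jarid2* went to NM_001205043.1, NM_021878.3 and NM_001360281.1, of which the first pair share the coding sequence and the last has no matched structure. NM_021878.3 had 1161, 1903 and 468 counts in 0X glucose, where NM_001205044.1 had none, and 441, 11 and 716 in 1X glucose. NM_001205043.1 took a median of 68.6% of the gene total and led in 10 of the 12 libraries, but its share ran from 13.1% to 91.2%. Within 0X glucose alone it took 30.7%, 13.1% and 73.2%. NM_001360281.1 was at 0 in 5 of the 12 libraries and reached 806 counts. The 3 predicted transcripts stayed at or below 150 counts, and XM_006516860.3 had none in any library. All 7 transcripts are mRNAs.

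*Pcgf6* was led by NM_027654.3, the mRNA with the 109-base exon, in 9 of the 12 libraries. Its counts were 1132, 1971 and 1610 in 0X, 1533, 1312 and 2840 in 1X, 336, 1335 and 2046 in 3X glucose and 247, 384 and 1241 in 2-DG, or 8.62% to 76.4% of the gene total. The predicted non-coding XR_003952814.1 varied less and held 709 to 1137 counts in every library. XR_001782614.2 and XR_386508.4, also predicted non-coding, were at 0 in all of 0X glucose. In 1X glucose the former had 29, 27 and 14 counts and the latter 21, 23 and 10. The estimated level in 1X glucose was thus 5.96-fold and 4.63-fold the floor in 0X glucose, and in 3X glucose both were at 0 in passages 15 and 16. NR_133574.1, which lacks the 109-base exon, had no more than 24 counts in any library. The share of the total in mRNA models ran from 27.0% to 77.3%.

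*Klf8* was the least settled. Each of 6 transcripts led in at least 1 library. NM_001357183.1 had 0, 0 and 3 counts in 0X, 43, 41 and 94 in 1X, 0, 19 and 93 in 3X glucose and 0, 7 and 2 in 2-DG. NM_173780.5, the other curated mRNA, had 21, 5 and 118 counts in 0X and 163, 137 and 0 in 1X glucose. Of the 11 predicted transcripts, 10 had a count somewhere. XM_006528859.3 held 123 counts and XM_006528860.4 233 counts in 1 library of 2-DG each and 0 in all others, and XM_030251351.1 held 227 and 188 counts in passage 16 of 1X and 3X glucose and at most 2 elsewhere.

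*Trim33*, chosen in 3X against 1X glucose, had its reads split between 2 curated mRNAs and 2 predicted non-coding RNAs. XR_375607.4 had 0 counts in all 3 libraries of 3X glucose and 3395, 0 and 3302 counts in 1X glucose. XR_003954429.1 had 7, 1 and 2 counts in 3X and 2442, 7 and 2985 in 1X glucose. The passage 15 library of 1X glucose therefore lay with the libraries of 3X glucose, and the groups overlapped. In 0X glucose XR_375607.4 had 615, 1218 and 351 counts, and in 2-DG 385, 1342 and 1896.

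The mRNAs of *Trim33* took the reverse share. NM_053170.3 and NM_001079830.2 together held 17.6%, 99.9% and 20.03% of the gene total in 1X glucose and 99.88%, 99.98% and 99.97% in 3X glucose. They held 76.1%, 56.5% and 83.6% in 0X glucose and 84.7%, 56.7% and 29.8% in 2-DG. Within this pair the transcript with the 51-base exon varied far less and took 46.5% to 65.6% (median 56.6%) in the 12 libraries. Over the same libraries the gene total differed at most 1.12-fold.

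In *Myef2*, predicted non-coding models took most of the reads in 11 of the 12 libraries, and the mRNA share ran from 2.43% to 57.2% with a median of 14.5%. XM_006498884.3 had 0 counts in all of 1X glucose and 252, 2030 and 1761 in 3X glucose, 536-fold the floor in 1X glucose. It also had 0, 0 and 1318 counts in 0X glucose and 0, 2132 and 3162 in 2-DG. The curated NM_010852.2 had 381, 435 and 649 counts in 1X glucose, 0, 2166 and 42 in 3X glucose, 253, 2724 and 9 in 0X glucose and 1, 10 and 302 in 2-DG. NM_001162417.1, the only matched transcript with the 51-base exon, did not exceed 39 counts in a library.

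The non-coding models of *Myef2* traded places within groups as well. XR_001781151.2 led in 7 libraries with a median share of 33.5%. It had 4038, 3533 and 5050 counts in 0X, 5527, 7354 and 606 in 1X, 228, 1407 and 5383 in 3X glucose and 1157, 4711 and 357 in 2-DG. XR_001781147.2 led in the other 5 libraries and had 868, 150 and 324 counts in 0X and 1934, 1119 and 5691 in 1X glucose. XR_001781150.1 held 3056 counts in passage 13 of 3X glucose, 4 in passage 15 of 0X glucose and 0 in the other 10 libraries. XM_017316131.2 held 1367 counts in passage 15 of 0X glucose, 1 in passage 13 of 3X glucose and 0 elsewhere.

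*Mybl2* was the exception. NM_008652.2 led in all 12 libraries and took a median of 94.1% of the total (73.3% to 98.9%). Its counts were 2046, 2160 and 2121 in 0X, 2534, 2341 and 2907 in 1X, 2208, 1981 and 2508 in 3X glucose and 2156, 1687 and 2078 in 2-DG. The transcript at 0 in 3X glucose was the predicted XM_006498878.4. It had 395, 51 and 75 counts in 1X glucose, 0 in all libraries of 0X and 3X glucose, and 0, 592 and 245 in 2-DG. Its estimated level in 1X glucose was 46.2-fold the floor in 3X glucose, and it never held more than 25.7% of the *Mybl2* total. The other 3 transcripts reached 199 counts at most.

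**Figure D3:**
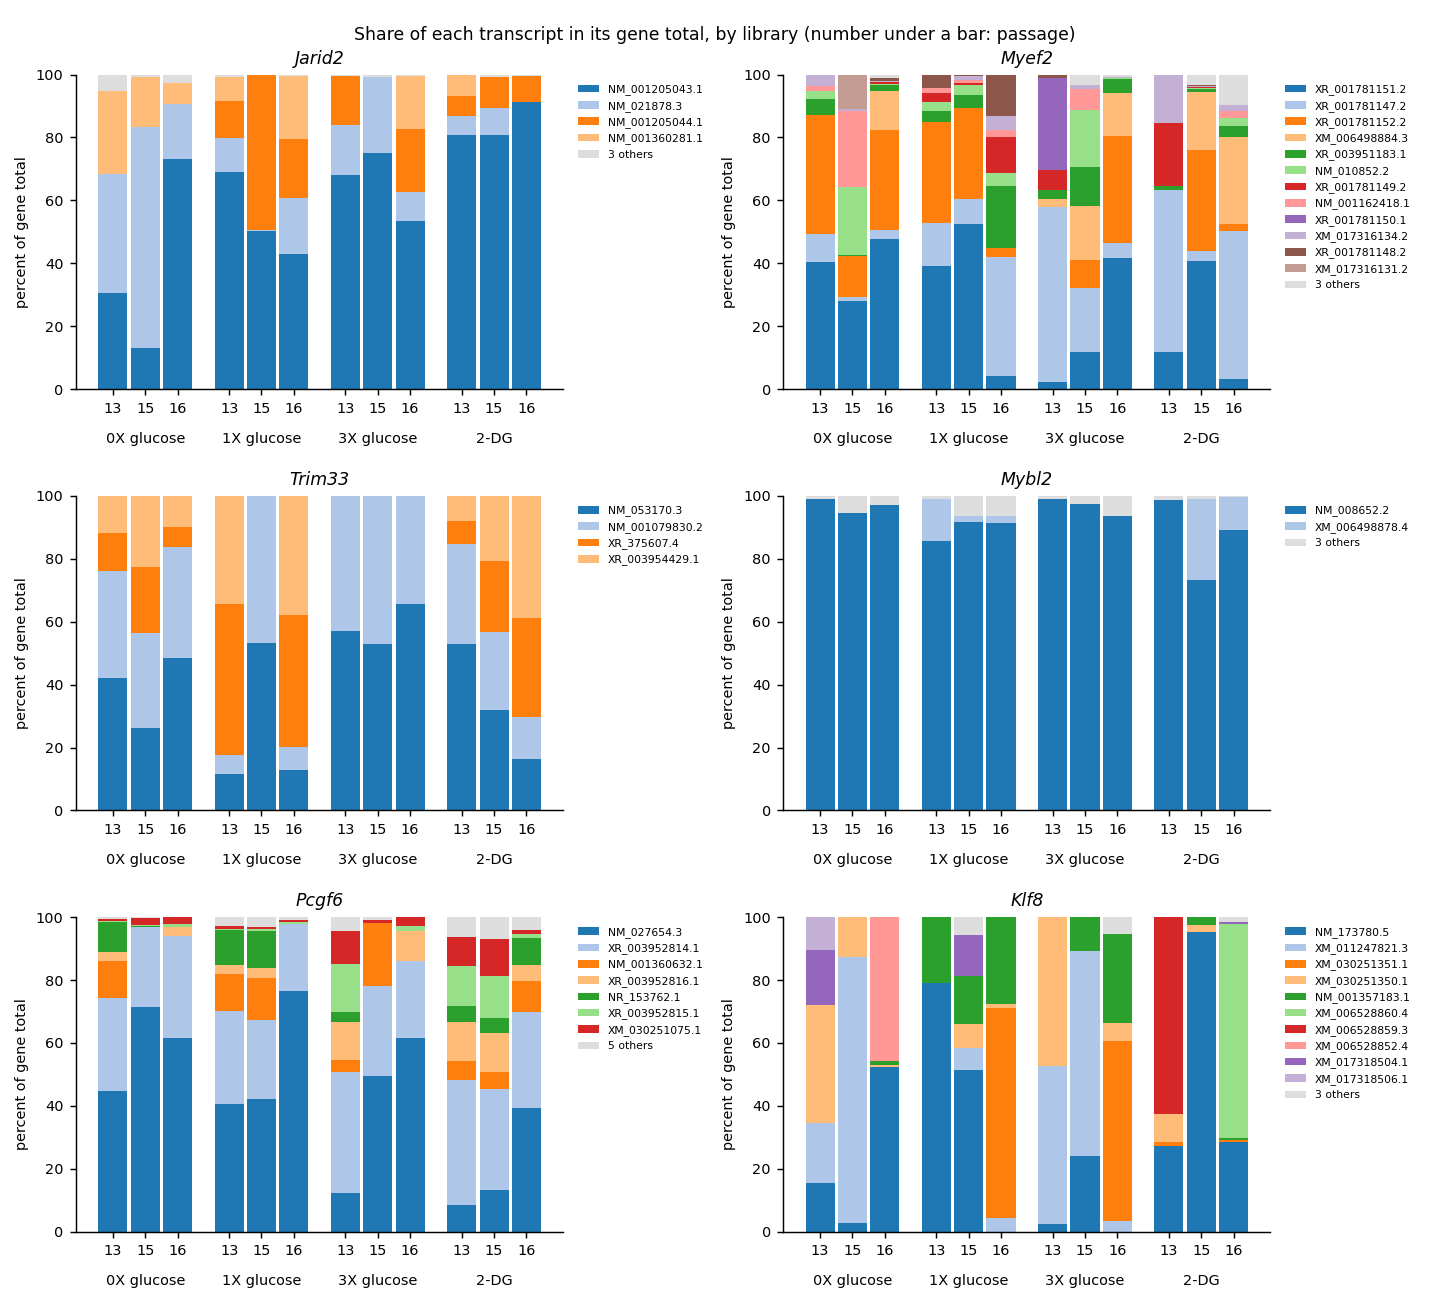
Percent of each gene total assigned to each transcript (vertical axis) in the 12 libraries, ordered by treatment, with the ES cell passage under each bar. Transcripts reaching 10% in a library have a color of their own and the rest are grey. Mybl2 is dominated by 1 transcript in all 12 libraries, whereas the mRNA pair of Trim33 takes 17.6% to 99.98% of its total.

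**Figure D4:**
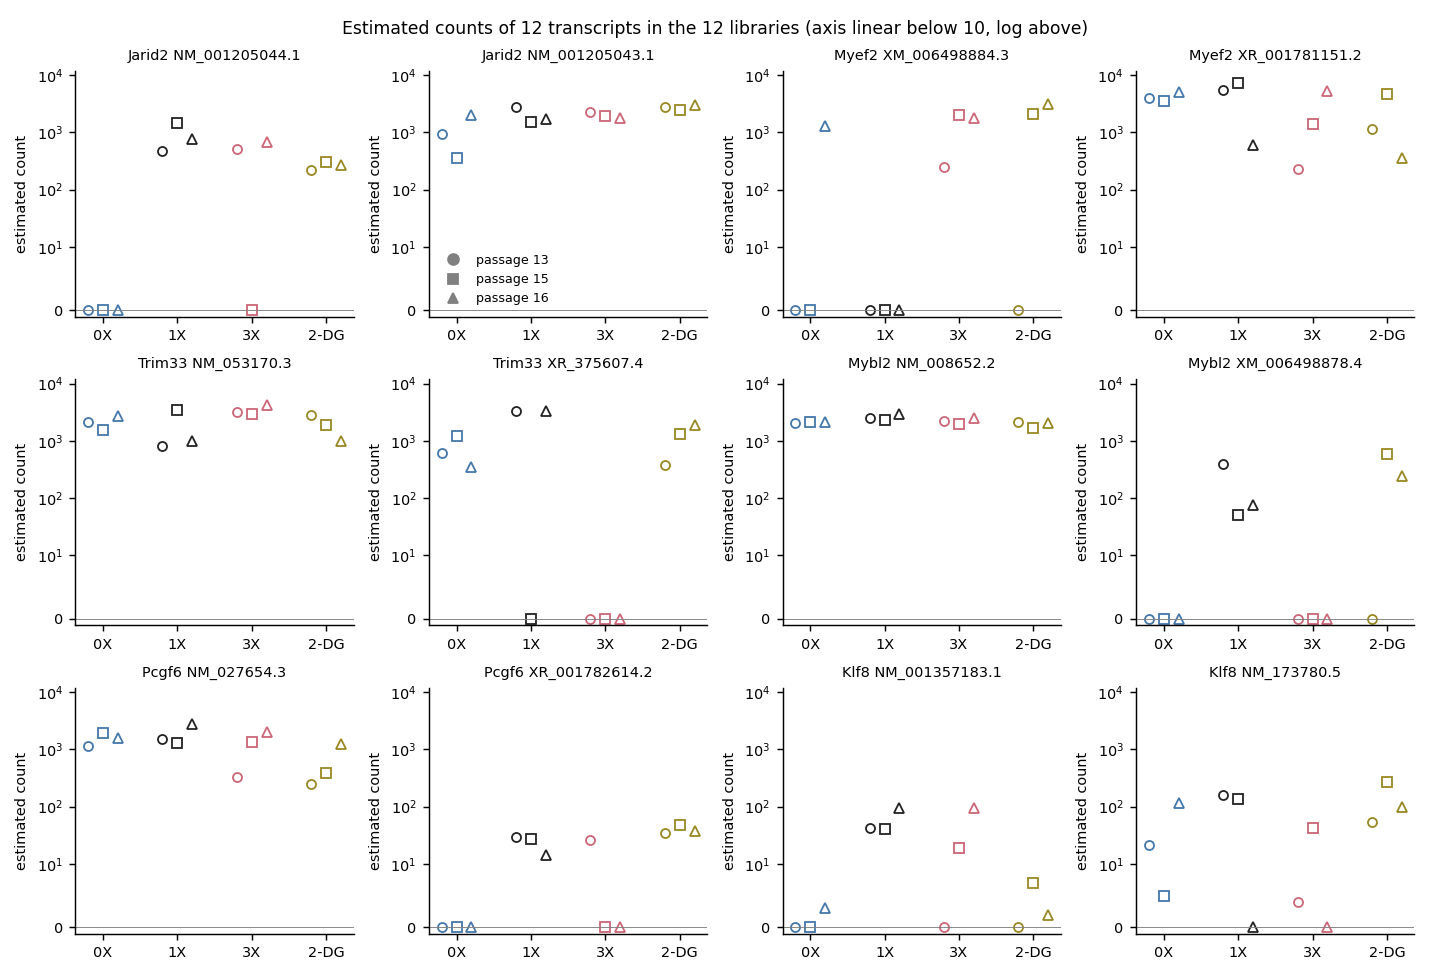
Estimated counts (vertical axis, linear below 10 and logarithmic above) of 12 transcripts, 2 per gene, in the 12 libraries by treatment, with symbols for the passage. Of the transcripts shown, Mybl2 NM_008652.2 stays between 1687 and 2907 counts, and Trim33 XR_375607.4 is at 0 in all of 3X glucose and in 1 library of 1X glucose.

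Transcripts at 0 in all libraries of 1 group and with at least 10 counts in all libraries of another were then counted over the whole files. Among transcripts with at least 10 counts in all libraries of either group, 0.684% (233 of 34074, in 199 genes) did so in 0X against 1X glucose and 0.648% (223 of 34393) in 3X against 1X glucose. The share was 0.712% in 2-DG against 1X glucose and 0.643% in 3X against 0X glucose. It was 0.822% in 2-DG against 0X glucose and 0.827% in 2-DG against 3X glucose. In the contrasts with 1X glucose, the transcripts of this kind were mostly at 0 in the other group. The rest, at 0 in 1X glucose, were 57 of 233 (0X), 69 of 223 (3X) and 79 of 248 (2-DG). The median library total was highest in 1X glucose, and the part of depth was not tested. Members of this kind were *Jarid2* NM_001205044.1, *Pcgf6* XR_001782614.2 and XR_386508.4 and *Mybl2* XM_006498878.4 in 0X against 1X glucose, and *Myef2* XM_006498884.3 and *Mybl2* XM_006498878.4 in 3X against 1X glucose. Those 2 contrasts chose the genes, so nothing is read from these counts. None of the 56 transcripts was of this kind in 2-DG against 1X glucose. In 2-DG against 0X glucose, *Jarid2* NM_001205044.1 and the same 2 transcripts of *Pcgf6* were, with 0X glucose at 0 each time. In 2-DG against 3X glucose, *Trim33* XR_375607.4 (0 in 3X glucose) and *Klf8* XM_011247821.3 (0 in 2-DG; 77, 116 and 11 counts in 3X glucose) were. *Trim33* XR_375607.4 was also the 1 member in 3X against 0X glucose. Outside the 2 contrasts that chose the genes, and except for *Klf8* XM_011247821.3, the libraries at 0 were those of 0X or 3X glucose. Those libraries also took part in the choice.

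The same jump from 0 to high counts occurred inside groups. A transcript of these genes reached 100 counts in a library of a group in 114 cases, and in 41 of them (36.0%) it was at 0 in another library of the same group. Over all transcripts the share was 17.4%. It ran from 16.7% in 1X to 18.0% in 0X glucose. Of the transcripts of the 6 genes, 9 of 27 did so in 1X, 8 of 28 in 0X, 15 of 28 in 3X glucose and 9 of 31 in 2-DG. The choice favored genes with large differences between transcripts, so the higher share is a description.

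The redistribution was then measured per gene as the percentage of its counts that would have to move between transcripts to turn the shares of one library into those of another, in percentage points, where 0 means equal shares. Between libraries of the same treatment it averaged 28.6 points for *Jarid2*, 58.3 for *Myef2*, 29.8 for *Trim33*, 8.74 for *Mybl2*, 28.7 for *Pcgf6* and 72.8 for *Klf8*. Between libraries of different treatments it averaged 38.1, 56.2, 39.5, 9.92, 33.0 and 76.0 points. For *Myef2* the libraries of 1 treatment differed as much as those of different treatments. The medians over the 8833 genes were 17.6 points within and 18.3 points between treatments, with a median of 4 transcripts per gene. The largest change of a single transcript's share over the 12 libraries is a description too, since it draws on the libraries that chose the genes. It was 95.3 points in *Klf8*, 78.2 in *Jarid2*, 67.7 in *Pcgf6*, 54.6 in *Myef2*, 54.1 in *Trim33* and 25.7 in *Mybl2*.

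**Figure D5:**
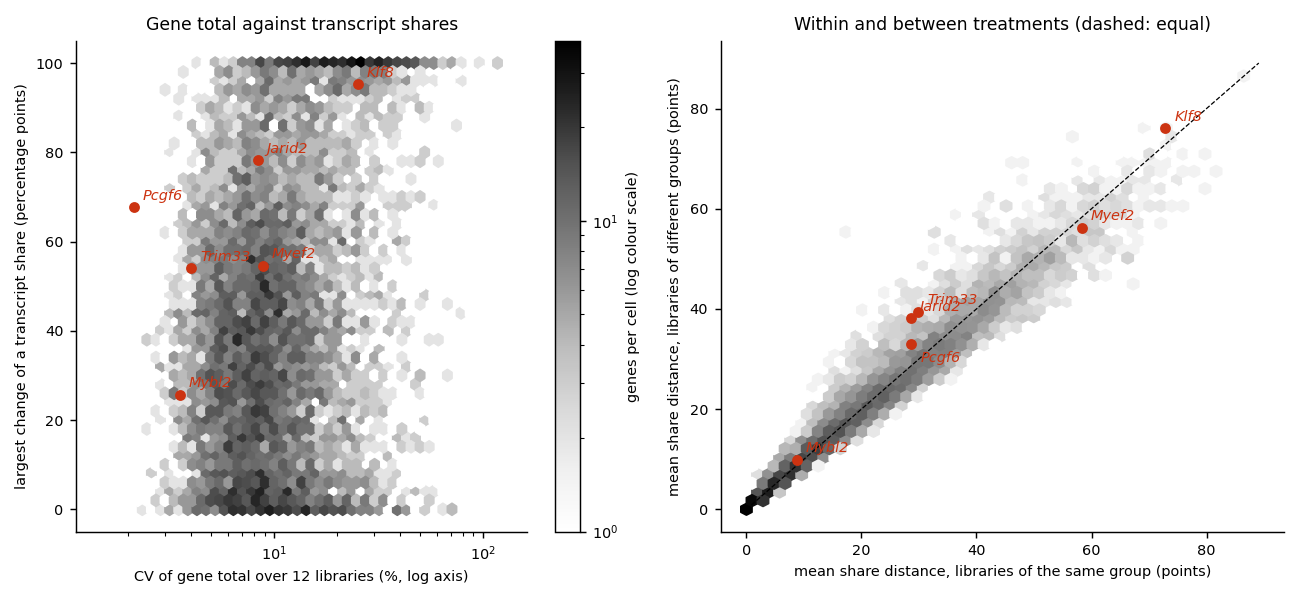
Left, the CV of the gene total (percent, log axis) against the largest change of a transcript's share over the 12 libraries (percentage points) for 8833 genes, with the 6 genes in red. Right, the mean share distance within and between treatments, where the dashed line marks equality. Pcgf6 combines a CV of 2.13% with a change of 67.7 points, and Myef2 lies just below the dashed line.

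The comparison with 2-DG was not used to choose the genes, although its 1X libraries were. None of the 6 totals was called in 2-DG against 1X glucose at an adjusted p of 0.05 (edgeR's quasi-likelihood test), 0 had an unadjusted p under 0.05, and 17.6% of the 16966 genes tested were called. The log2 fold changes were 0.09 (SE 0.10, adjusted p = 0.588) for *Jarid2*, -0.15 (SE 0.09, adjusted p = 0.318) for *Myef2* and -0.06 (SE 0.05, adjusted p = 0.454) for *Trim33*. They were -0.09 (SE 0.04, adjusted p = 0.168) for *Mybl2*, 0.01 (SE 0.04, adjusted p = 0.898) for *Pcgf6* and 0.25 (SE 0.28, adjusted p = 0.597) for *Klf8*. DESeq2 called 0 of them as well, with 1 at an unadjusted p under 0.05. Each group was also set against 2-DG where the choice had not used it. In 2-DG against 3X glucose (15.2% of genes called), *Jarid2*, *Pcgf6* and *Klf8* had adjusted p = 0.679, 0.815 and 0.493 in edgeR, and in 2-DG against 0X glucose (18.9% called), *Myef2*, *Trim33* and *Mybl2* had adjusted p = 0.234, 0.285 and 0.167. DESeq2 called 0 of the 3 in each of these comparisons, with 0 and 1 at an unadjusted p under 0.05, against 0 and 0 in edgeR.

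A block for the passage brought 2 of the genes past the threshold. *Myef2* was lower in 2-DG than in 1X glucose at 3 of 3 passages (286 against 311, 316 against 368 and 304 against 323 CPM), by -0.14 on the log2 scale (SE 0.04, adjusted p = 0.00805 in edgeR, with 41.3% of all genes called). It was also lower than in 0X glucose at 3 of 3 passages, by -0.16 (SE 0.04, adjusted p = 0.00353, with 43.1% of genes called). *Klf8* was higher in 2-DG than in 3X glucose at 3 of 3 passages (5.77 against 4.47, 7.57 against 5.43 and 9.14 against 8.05 CPM), by 0.34 (SE 0.10, adjusted p = 0.0231, with 38.8% of genes called). *Jarid2*, *Trim33*, *Mybl2* and *Pcgf6* were not called with the block in 2-DG against 1X glucose (lowest edgeR adjusted p = 0.0592, *Jarid2*), nor was *Klf8* (0.0674). In that edgeR fit 4 of the 6 had an unadjusted p under 0.05. With the block, *Jarid2* and *Pcgf6* had edgeR adjusted p = 0.107 and 0.713 in 2-DG against 3X glucose. *Trim33* and *Mybl2* had edgeR adjusted p = 0.0749 and 0.0653 in 2-DG against 0X glucose. In bulk RNA, fewer cells that express a gene and less RNA per cell cannot be told apart.

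At the level of transcripts, 40 of the 56 passed the filter on low counts (6 of *Jarid2*, 11 of *Myef2*, 4 of *Trim33*, 4 of *Mybl2*, 11 of *Pcgf6* and 4 of *Klf8*). In 2-DG against 1X glucose, edgeR called 0 of the 40, with 5 at an unadjusted p under 0.05, and 0.288% of the 46254 transcripts tested. The lowest adjusted p was 0.351, for *Pcgf6* XM_030251075.1, which had 32, 24 and 29 counts in 1X glucose and 267, 338 and 41 in 2-DG. The result differed between tools. DESeq2 on the same counts, with a local dispersion fit that it substituted for its parametric one, called 7.11% of transcripts and 3 of the 40. These were *Pcgf6* XM_030251075.1 (log2 fold change 3.19, SE 0.92, adjusted p = 0.0103) and, in *Myef2*, XM_006498884.3 and XM_030248228.1. The last pair were at 0 in all of 1X glucose and also in the passage 13 library of 2-DG, and XM_030248228.1 had 0, 364 and 1076 counts there. DESeq2 gave XM_006498884.3 an adjusted p of 1.88e-10, and edgeR gave it 0.477, with a dispersion of 5.99 for this transcript against 0.00804 for the *Myef2* total.

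This contrast in spread held across the files. The common dispersion, the squared biological CV beyond counting error, was 0.0316 for gene totals and 1.23 for transcripts, that is 17.8% and 111% as a CV. For the totals of the 6 genes the biological CV was 5.57% (*Pcgf6*) to 9.49% (*Jarid2*), with 25.02% for *Klf8*. With the passage in the fit, the common dispersion fell to 0.0063 for gene totals and stayed at 1.16 for transcripts.

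Whether the transcripts of a gene changed by unequal folds was tested with edgeR's diffSpliceDGE, over the 8904 genes with at least 2 transcripts kept. In 2-DG against 1X glucose it called 1.33% of genes and 0 of the 6, with 1 at an unadjusted p under 0.05 (*Myef2*, edgeR adjusted p = 0.293). Between passage 13 and passages 15 and 16 it called 1.2% and 0 of the 6, with 1 at an unadjusted p under 0.05 (*Pcgf6*, edgeR adjusted p = 0.446). Between passages 16 and 15 it called 0.708% and 0 of the 6, with 0 at an unadjusted p under 0.05. DESeq2 was not used for this test.

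Passages were not used to choose the genes, and each passage holds 1 library of every treatment. The 4 libraries of a passage belong to 1 replicate of the experiment and are not independent replicates of that passage. Passage therefore cannot be told apart from other differences between the replicates. In edgeR, 46.2% of gene totals differed between the 3 passages, as did 3 of the 6. *Jarid2* was at 95.8 ± 4.4 CPM at passage 13, 80.5 ± 2.1 at passage 15 and 85.2 ± 2.4 at passage 16 (SD, n = 4), with passage 13 the highest in 4 of 4 treatments (edgeR adjusted p = 0.000232). *Klf8* was at 4.76 ± 0.68, 6.31 ± 1.17 and 7.88 ± 0.95 CPM, with passage 13 the lowest in 4 of 4 treatments (edgeR adjusted p = 0.000307). *Myef2* was at 303 ± 12.6, 356 ± 27.5 and 317 ± 9.8 CPM, with passage 15 the highest in 4 of 4 treatments (edgeR adjusted p = 0.000428). *Trim33* (159 to 169 CPM, edgeR adjusted p = 0.0629), *Mybl2* (64.7 to 66.0 CPM, 0.730) and *Pcgf6* (81.3 to 81.6 CPM, 0.985) were not called in this test of all 3 passages. *Trim33* was called in passage 13 against passages 15 and 16 (log2 fold change -0.07, SE 0.03, edgeR adjusted p = 0.0378). In the test of all 3 passages, DESeq2 also called 3 of the 6, and 39.8% of all genes. When the totals were summed over curated transcripts alone, the same test of all 3 passages did not call *Myef2* (edgeR adjusted p = 0.515) or *Klf8* (0.597). The log2 fold changes of passage 13 against the other passages were then larger, -3.05 for *Myef2* (-0.15 with all transcripts) and -1.40 for *Klf8* (-0.57).

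The 4 paraxial mesoderm markers (*Meox1*, *Tcf15*, *Aldh1a2* and *Msgn1*) differed between the same passages, with sums of 234 to 313 CPM at passage 13, 659 to 871 at passage 15 and 505 to 685 at passage 16. The part of cell composition in the passage differences of *Jarid2*, *Klf8* and *Myef2* was not tested. Among single transcripts, edgeR called 0 of the 40 between passages, with 1 at an unadjusted p under 0.05, and 0.729% of all (337 transcripts, and 36 to 261 with 1 library left out, lowest without passage 13 of 1X glucose). DESeq2 called 9.55% of all and 2 of the 40, *Pcgf6* NM_027654.3 (adjusted p = 0.0287) and XM_006527338.4 (adjusted p = 0.0352).

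The genes that work with the 6 were described from fixed lists, as gene totals in 2-DG against 1X glucose, where 17.6% of all genes were called and the median log2 fold change of all genes was 0.0023. The 10 genes named from the lists were picked for the largest changes among those called in this contrast. In each of them the 3 libraries of 2-DG lay outside the range of the 3 of 1X glucose, which the choice favors. Of 11 core and accessory genes of Polycomb repressive complex 2, the complex of Jarid2, 1 was higher and 1 lower in 2-DG. *Phf1*, an accessory subunit, rose from 12.5 ± 1.4 to 18.3 ± 1.8 CPM (log2 fold change 0.55, SE 0.12, edgeR adjusted p = 0.0121). *Ezh2*, the methyltransferase, fell from 309 ± 9.0 to 258 ± 18.5 CPM (-0.26, SE 0.06, edgeR adjusted p = 0.0152). Without the passage 15 library of 1X glucose, *Phf1* was at 0.47 on the log2 scale and not called (edgeR adjusted p = 0.0551). Of 13 genes of PRC1.6, the complex of Pcgf6, 5 were lower and 0 higher, with a median log2 fold change of -0.13. *E2f6*, a DNA-binding subunit, fell from 104 ± 4.3 to 68.7 ± 0.75 CPM (-0.59, SE 0.06, edgeR adjusted p = 0.000165). *Yaf2* fell from 64.7 ± 4.4 to 51.5 ± 0.98 CPM (-0.33, SE 0.06, edgeR adjusted p = 0.00442). The count of 5 was 3 without the passage 15 library of 1X glucose or the passage 13 library of 2-DG and 2 without the passage 15 library of 2-DG or with curated transcripts alone.

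None of 10 genes of the MuvB and B-Myb complexes was called. Of 13 late cell cycle targets of Mybl2, 4 were lower and 0 higher, among them *Ccnb2*, a mitotic cyclin (115 ± 5.4 to 77.5 ± 4.0 CPM, -0.56, SE 0.05, edgeR adjusted p = 0.000121), and *Bub1*, a spindle checkpoint kinase (247 ± 16.2 to 195 ± 9.0 CPM, -0.34, SE 0.07, edgeR adjusted p = 0.00649). Of 12 Smad pathway genes around Trim33, *Trim24*, its relative, was higher (184 ± 7.0 to 236 ± 15.9 CPM, 0.36, SE 0.06, edgeR adjusted p = 0.00308). *Mixl1*, a mesendoderm gene activated by Nodal signaling, was lower, at 5.75 ± 1.84 CPM in 1X glucose and 0.38 ± 0.18 in 2-DG (-3.89, SE 0.42, edgeR adjusted p = 0.00032). The sum of the posterior markers was also lower in 2-DG than in 1X glucose, as given above, and the part of these markers in these list counts was not tested.

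Of 16 tested Klf family and CtBP genes, 5 were higher and 0 lower in 2-DG, with a median log2 fold change of 0.18. *Klf10* rose from 53.4 ± 2.3 to 100.4 ± 5.0 CPM (0.91, SE 0.07, edgeR adjusted p = 5.12e-05) and *Klf3* from 24.3 ± 2.1 to 41.9 ± 1.9 CPM (0.79, SE 0.08, edgeR adjusted p = 0.000190). The 6 ES cell markers tested, *Klf4* among them, summed to 36.9 to 51.9 CPM in 1X glucose and 58.4 to 72.1 CPM in 2-DG, and their part in this count was not tested. The count of 5 fell to 2 or 3 without any 1 of the 1X libraries or without the passage 13 or 15 library of 2-DG, and was 3 with curated transcripts alone or without the filter on low counts. None of the 4 genes listed around *Myef2* (*Hnrnpm*, *Hnrnpa1*, *Hnrnpk* and *Mbp*) was called. When libraries were blocked by passage, 6 of 11, 8 of 13, 3 of 10, 4 of 13, 8 of 12, 8 of 16 and 2 of 4 genes passed in the Polycomb 2, PRC1.6, MuvB, Mybl2 target, Smad, Klf and *Myef2* lists, beside 41.3% of all genes. With sums over curated transcripts alone, *Ezh2*, *E2f6* and *Trim24* kept their direction, at -0.55, -0.40 and 0.37 on the log2 scale, and were not called (edgeR adjusted p = 0.660, 0.325 and 0.112).

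For each of the 6, the 3 genes with the highest Pearson's r of log2 CPM over the 12 libraries were picked from all genes tested. The libraries share passages and treatments, and these values, the highest of many, are a description. For *Jarid2* the 3 closest were *4930556M19Rik*, *Ankrd24* and *Tnfrsf25* (r = 0.965, 0.961 and 0.959), and for *Myef2* they were *Mapre1*, *Taf1* and *Atp7a* (0.979, 0.965 and 0.961). *Trim33* was followed by *Cnot6*, *Fcho2* and *Trip12* (0.964, 0.951 and 0.937), and *Klf8* by *Rgs19*, *Arhgap1* and *Gria3* (0.962, 0.957 and 0.952). *Mybl2* was followed by *Serpina3n*, *Dhx34* and *Agbl3* (0.941, 0.908 and 0.895). The lowest values were those of *Pcgf6*, the steadiest of the 6, with *Toe1*, *1700001G11Rik* and *Pheta2* (0.876, 0.828 and 0.808).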

How the data were processed

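PolyA RNA of 12 libraries (4 treatments, 3 ES cell passages each) was sequenced from directional libraries. For each library, the authors deposited a table that lists an estimated count for every RefSeq transcript. Per the labels and the study's methods, reads were trimmed with Trim Galore, aligned with HISAT2 to mm10, processed with SAMtools and Picard, and quantified with StringTie. Versions, the annotation release and the parameters are not given in the sources used here. All values were whole numbers. Reads in shared exons were divided among models by that program, so a transcript's estimated count depends on the models offered. The authors' 3 tables of DESeq2 comparisons (mean, log2 fold change, p-value and adjusted p-value per transcript) were not used.

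The members and the lists were chosen with earlier results of these data known. Accessions were matched to genes in the RefSeq table of GRCm38.p6 (120312 of 120312), and counts were summed per gene. Fits across all genes and all transcripts used edgeR 4.0.16 in R 4.3.3 (TMM, filterByExpr, glmQLFit, glmQLFTest, diffSpliceDGE), with all 12 libraries, two-sided tests, and Benjamini-Hochberg adjustment over all features tested (threshold 0.05). Filters left 16966 genes and 46254 transcripts. Treatments were fitted without the passage, and passages with the treatment. The SE of a log2 fold change came from the F statistic. CPM, shares and spreads were computed in Python 3.11.15. Fits were tested on simulated counts with no passage effect and with a dispersion capped below the common value of the transcripts (1.23). That test does not show how the transcript fits perform at the spread of these data. Alternatives were a replicate block by passage, scaling by median-of-ratios factors, no filter, curated transcripts only, DESeq2 1.42.0, leaving out each library, and minimums of 5 and 20 counts for transcripts at 0 in 1 group. Named genes were the members, the 2 called genes of each list with the largest change, and the 3 genes most correlated with each member on log2(CPM + 0.5).

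The labels give each replicate an ES cell passage, which pairs libraries of different treatments. Deviations from group means correlated across genes at 0.0963 to 0.623 in the 18 pairs of 1 passage, and at -0.440 to 0.191 in the 36 pairs of different passages and treatments.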

Additional observations from a re-analysis of the deposited data

How the results depend on the processing

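The passage of the ES cells paired the libraries, and with it as a replicate block edgeR called 7001 gene totals in 2-DG against 1X glucose (2990 without), 6588 against 3X (2586) and 7305 against 0X glucose (3207), 400 transcripts (133) and 92 genes for transcript usage (118). Sums over curated transcripts alone gave 1076, 919 and 1213 gene totals, and 3018 between passages (7840). Without the filter on low counts, 60 transcripts were called in 2-DG and 184 between passages (337), and 615 and 534 genes for usage between passages (107 and 63). DESeq2 called 3289 and 4419 transcripts.

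Leaving out 1 library gave 1734 to 2352 gene totals against 1X, 1440 to 1853 against 3X and 2051 to 2619 against 0X glucose, each lowest without the passage 15 library of the glucose group. It gave 5857 to 7805 between passages, 71 (without passage 13 of 1X glucose) to 130 transcripts in 2-DG and 36 (without the same library) to 261 between passages, and for usage 106 to 138 in 2-DG, 200 to 270 for passage 13 and 164 to 220 for passage 16 against 15. An arm left with 2 libraries kept the pooled spread.

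Of 228 recomputed fold changes of the 6 genes, 206 kept direction and call, 5 gained and 2 lost the call, and 15 turned sign, where the call on passages is that of the test of all 3 together. With curated transcripts alone, *Trim33* turned to 0.22 and *Pcgf6* to -0.98 in 2-DG against 1X glucose, *Pcgf6* to -0.51 against 3X glucose, and *Mybl2* to 0.052 and *Pcgf6* to -0.68 at passage 13. *Pcgf6* against 1X glucose was -0.0077 without the filter and -0.0070 to 0.039 with 1 library left out (below 0 without passage 16 of 1X glucose, at -0.0035, or passage 13 or 16 of 2-DG, at -0.0061 and -0.0070). Its passage 13 difference then ran from -0.0078 to 0.022, below 0 without passages 13 and 16 of 1X glucose (-0.0052 and -0.00034) or 13 and 15 of 2-DG (-0.0056 and -0.0078). *Jarid2* against 3X glucose ran from -0.0059 (without passage 13 of 2-DG) to 0.16, and *Mybl2* at passage 13 from -0.028 to 0.00066 (without passage 13 of 1X glucose). In that test *Trim33* (0.0629 with all libraries) was called without passage 13 or 16 of 3X glucose (edgeR adjusted p = 0.0461 and 0.0355). The causes were not tested. With 136 to 343 counts per library, depth limits *Klf8* most.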
